A study of Mus musculus with 15 samples.

Results

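Collagens are secreted proteins built of 3 chains wound into a triple helix, and each chain has its own gene. The collagen chain genes were taken as all probes whose platform annotation symbol was Col, a number, the letter a and a number, which gave 37 genes on 59 probes, of 16593 named genes and 25697 probes in the whole table. Of these genes 11 encode fibrillar chains, 8 chains of the basement membrane and 18 other collagens. RNA came from heart and liver of male mice of the strain C57BL/6J-Tyr at 17 weeks of age, either wild type or homozygous for a mutation of Abcb5, a transporter of the ATP-binding cassette family. The labels do not say what the mutation changes, and the strain, sex and age were the same in every group. The arrays were 4 wild-type hearts, 4 mutant hearts, 4 wild-type livers and 3 mutant livers, from 8 mice of which 7 gave both tissues. The comparison asked which collagen genes differ with the genotype within each tissue.

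Fibrillar collagens (types I, III, V and their relatives) assemble into the fibres that carry load between cells, and in heart they are made mostly by fibroblasts. Type IV collagen forms the sheet of the basement membrane under endothelium and around cardiomyocytes, and types XV and XVIII are proteoglycans of the basement membrane zone. Newly made chains are hydroxylated and folded in the endoplasmic reticulum, trimmed outside the cell and crosslinked by lysyl oxidases.

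The genes Col4a1 and Col4a2 encode the chains of the common type IV network and lie head to head on opposite strands of mouse chromosome 8. Their promoter windows are shown because both genes rose together in the mutant hearts, as described below. They are given as in RefSeq on GRCm38.p6, from 250 bases before to 50 after the annotated start. Col4a1 lies at chr8:11312777-11313076 on the minus strand and Col4a2 at chr8:11312555-11312854 on the plus strand. The capitals mark the 78 bases that both windows share, read on opposite strands.
Col4a1: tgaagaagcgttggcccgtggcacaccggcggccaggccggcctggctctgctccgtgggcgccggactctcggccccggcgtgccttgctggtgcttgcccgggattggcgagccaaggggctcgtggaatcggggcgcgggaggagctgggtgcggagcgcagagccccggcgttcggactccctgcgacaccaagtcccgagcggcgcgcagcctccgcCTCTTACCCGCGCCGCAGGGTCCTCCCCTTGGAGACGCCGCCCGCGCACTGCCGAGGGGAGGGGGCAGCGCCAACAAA
Col4a2: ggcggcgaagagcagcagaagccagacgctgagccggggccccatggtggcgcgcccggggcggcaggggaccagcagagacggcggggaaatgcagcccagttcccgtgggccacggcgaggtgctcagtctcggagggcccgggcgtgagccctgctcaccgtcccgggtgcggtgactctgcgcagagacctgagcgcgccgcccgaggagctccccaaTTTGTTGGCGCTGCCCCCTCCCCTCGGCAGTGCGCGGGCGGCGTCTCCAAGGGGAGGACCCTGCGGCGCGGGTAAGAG
The annotated starts lie 21 bases apart. Both windows held the CCAAT motif and the GGGCGG motif, each searched on both strands. The only GGGCGG match of the Col4a1 window lies in the shared bases, so the Col4a2 window holds it by construction. Of all 32851 promoter windows 37.4% held CCAAT and 35.7% held GGGCGG. Of the 33 windows of the 30 collagen genes with an entry 12 and 20 did. These matches describe letters only.

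In the mutant hearts 8 collagen genes rose and 0 fell. They were the fibrillar genes Col1a1, Col3a1 and Col5a1, the basement membrane genes Col4a1, Col4a2, Col15a1 and Col18a1, and Col16a1, which associates with fibrils. Each gene stands for the brightest of its probes in that tissue, and Col6a1 of the beaded filaments rose on another of its probes. With an offset of 16, increases ran from 1.30-fold for Col16a1 to 1.77-fold for Col4a1. In heart 30 of the 37 genes (42 of 59 probes) were above background on at least 3 arrays and were tested. Of all 12559 genes tested there, 1.31% rose and 0.868% fell, against 8 and 0 of the 30 collagen genes. A positive change of any size was seen for 18 of the 30, against 51.8% of all genes. The test was limma over all 18517 probes, with Benjamini-Hochberg adjusted p below 0.05 as the threshold.

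Among the fibrillar genes, Col1a1 encodes the main chain of type I collagen, the most abundant fibrillar collagen. Its deposited intensity was 136, 116, 135 and 107 on the wild-type heart arrays 1 to 4 and 266, 208, 240.2 and 171 on the mutant heart arrays 1 to 4. Every mutant heart was above every wild-type heart. The log2 change, taken here and below on background-corrected intensity plus an offset of 16, was 0.74 ± 0.13 (SE over 4 mice of each genotype, a 1.67-fold increase with a limma adjusted p = 0.0142). Col3a1, which encodes type III collagen of pliable fibres, stood at 24.2, 17.8, 8.92 and 16 in wild-type and at 54.0, 43.2, 35.7 and 38.3 in mutant hearts. This probe was dim, and its groups did not overlap. The change was 0.81 ± 0.14 (1.75-fold, limma adjusted p = 0.0131), and a second, dimmer probe of Col3a1 stood at 0.21 ± 0.19 (adjusted p = 0.661). The size of the Col3a1 change depended on the setting, with 0.46 at an offset of 50, 0.51 over the mean of both probes and 1.21 with uncorrected values floored at 16, where it did not pass. Col5a1, a chain of the type V collagen that sets fibril diameter, stood at 336, 331, 279.7 and 243 in wild-type and at 542, 535, 549.9 and 424 in mutant hearts. Mutant heart 4 was the lowest mutant and still above all wild-type hearts. Col5a1 rose by 0.75 ± 0.13 (1.68-fold, limma adjusted p = 0.0103).

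The other fibrillar genes did not pass the threshold in heart. Col1a2, the partner chain of Col1a1 in type I collagen, stood at 19.9, 5.56, 21.3 and 17.0 in wild-type and at 25.7, 10.8, 12.0 and 16.3 in mutant hearts. The groups overlapped, and the log2 change was 0.02 with a 95% interval from -0.35 to 0.39. The interval leaves out the change measured for Col1a1, but the Col1a2 probe was dim and no test compared the genes. The remaining 6 tested fibrillar genes, Col2a1, Col5a3, Col11a1, Col11a2, Col24a1 and Col27a1, had changes between -0.18 and 0.18. Col2a1, the main chain of cartilage collagen, had a probe of each sign (0.19 and -0.18). The probe of Col5a2 was above background on 1 heart array and was not tested. Over the 10 tested fibrillar genes 3 rose and 0 fell, with a median log2 change of 0.06 against 0.01 over all genes tested.

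The basement membrane genes had the brightest of the changed collagen probes. Col4a1 stood at 1317, 1258, 1363 and 1419.5 in wild-type and at 2355, 3282, 2769.9 and 1504 in mutant hearts. The wild-type hearts were close to each other, while mutant heart 4 lay just above them and far below the other mutants. The log2 change of Col4a1 was 0.82 ± 0.19 (1.77-fold, limma adjusted p = 0.0471). Col4a2 also had mutant heart 2 highest and mutant heart 4 lowest of the mutants, with 1317, 1213, 1284 and 1219.8 in wild-type and 2590.3, 2765, 2360.4 and 1469 in mutant hearts. It rose by 0.82 ± 0.17 (1.76-fold, limma adjusted p = 0.0276). After subtraction of each genotype's mean, the log2 values of these neighbours had a Pearson correlation of 0.91 over the 8 hearts. It was the highest of the 28 pairs among the 8 genes that rose. The pairs ranged from -0.75 to 0.91 with a median of 0.32, against a median of 0.00 between these genes and all other tested genes. All pairs share the same 8 arrays and their normalization, and these correlations are given as a description.

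Col15a1 encodes a collagen of capillary and muscle basement membranes. Its intensity was 217, 185, 198 and 178 in wild-type and 338, 347, 303 and 264 in mutant hearts, without overlap. It rose by 0.64 ± 0.11 on the log2 scale (1.55-fold, limma adjusted p = 0.0125). Col18a1, whose C-terminal fragment is endostatin, stood at 169, 171, 144 and 132 in wild-type and at 255, 210.2, 368 and 258 in mutant hearts. Mutant heart 3 was the highest and the groups did not overlap. This probe rose by 0.73 ± 0.15 (1.66-fold, limma adjusted p = 0.0276), a second, dim probe stood at 0.28 ± 0.16 (adjusted p = 0.424), and the remaining probe was above background on 0 heart arrays.

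The other type IV chains did not pass. Col4a5, which with Col4a3 and Col4a4 makes the type IV network known from kidney, stood at 157, 133, 165 and 119 in wild-type and at 130.3, 176, 123 and 117 in mutant hearts. These values overlapped fully, with a log2 change of -0.07 and a 95% interval from -0.36 to 0.22. Col4a3, Col4a4 and Col4a6 were dim, with changes from -0.18 to 0.05 on their brightest probes. Of the 8 basement membrane genes 4 rose and 0 fell, with a median log2 change of 0.34.

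Among the other collagens the clearest values were those of Col6a1, a chain of the type VI beaded filaments around cells. One of its probes stood at 322, 276, 274 and 259.7 in wild-type and at 483, 507, 515 and 478 in mutant hearts. The mutant hearts were close to each other and all above the wild-type hearts. This probe rose by 0.77 ± 0.10 on the log2 scale (1.71-fold, limma adjusted p = 0.00149), the smallest adjusted p of the 42 collagen probes. The brightest probe of Col6a1 stood at 839, 687, 715 and 638 against 1023, 1282, 1009.7 and 781, where mutant heart 4 fell within the wild-type range. Its change was 0.48 ± 0.14 (adjusted p = 0.113), so the probes of Col6a1 differed in call but not in sign. The remaining probe, near background, stood at 0.29 ± 0.13 (adjusted p = 0.307).

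Col6a2, the partner of Col6a1 in the type VI filament and its neighbour on the chromosome, stood at 151, 124, 119.5 and 147 in wild-type and at 215, 236, 192 and 141 in mutant hearts. Mutant heart 4 again lay among the wild-type values, and the change of 0.46 ± 0.14 did not pass (adjusted p = 0.128). Col16a1 stood at 133, 142, 137 and 135 in wild-type and at 188, 196, 169 and 182 in mutant hearts. Its change was the smallest of those that passed, 0.38 ± 0.09 (1.30-fold, limma adjusted p = 0.0490), with both groups tight and apart. Col9a1, a collagen of cartilage fibrils, had 3 dim probes of both signs. The one with the smallest p stood at 4.43, 2.15, -1.85 and -2.40 in wild-type and at 11.1, 3.69, 10.5 and 12.5 in mutant hearts (log2 change 0.49 ± 0.13, adjusted p = 0.0800), and the groups overlapped. Over the 12 tested genes of this group 1 rose and 0 fell, with a median log2 change of 0.03 and a range from -0.16 to 0.48.

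**Figure D1:**
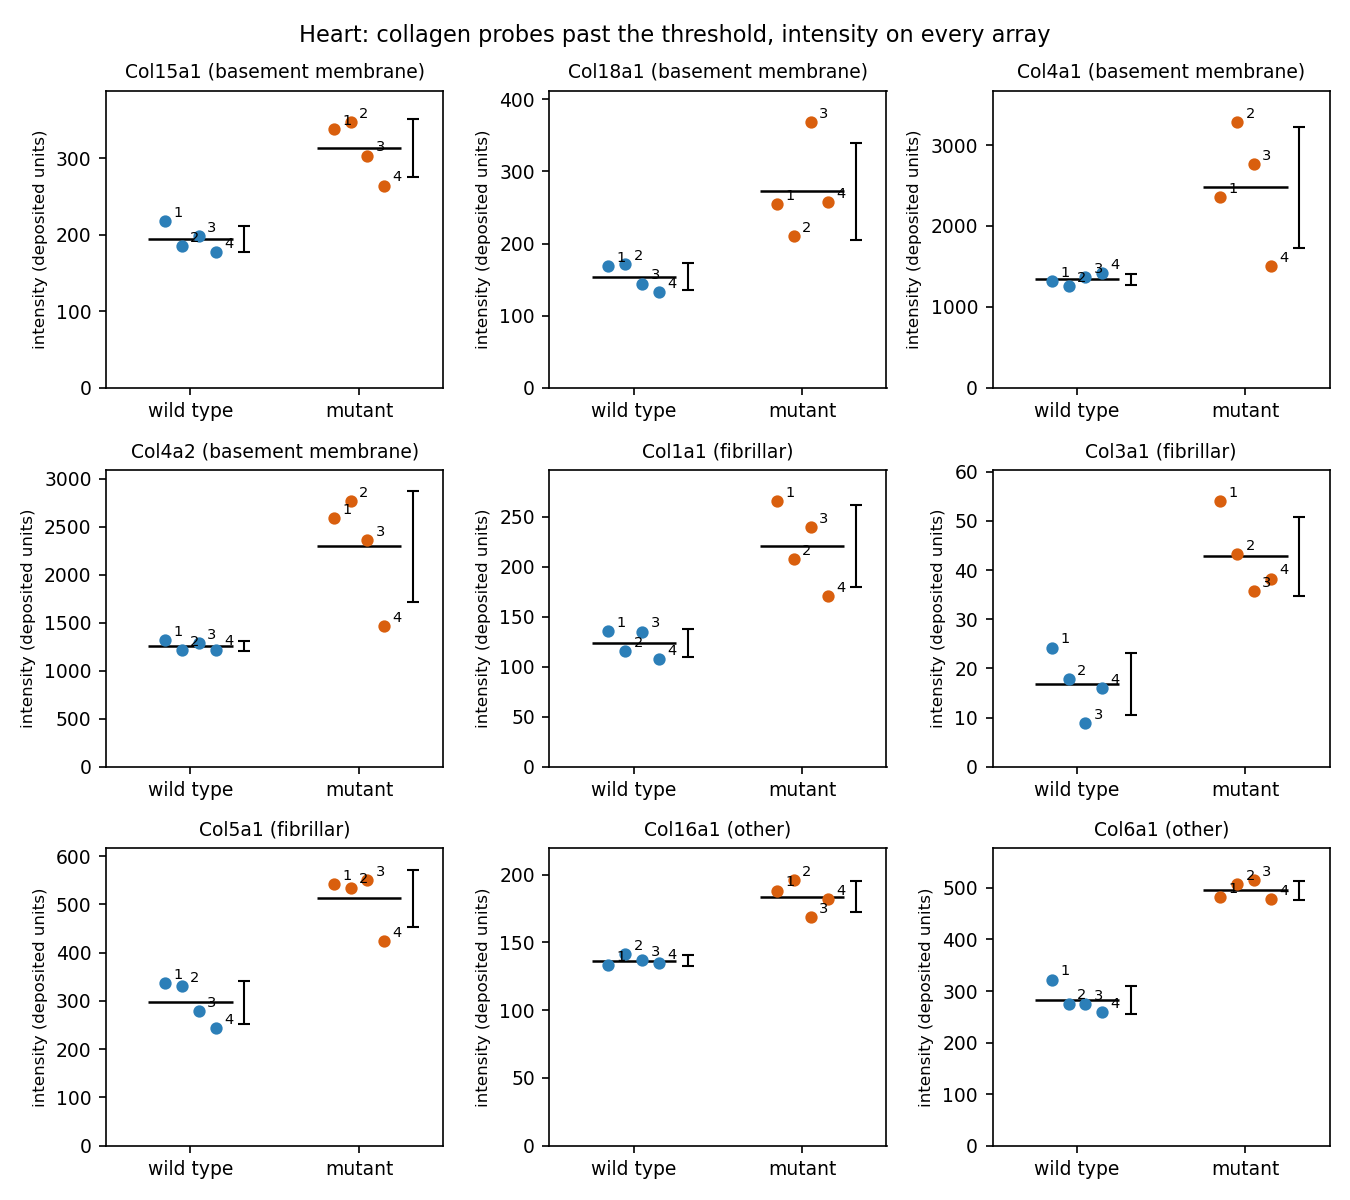
Deposited intensity (linear, starting at 0) of the 9 collagen probes past the threshold in heart, for 4 wild-type and 4 mutant mice; points are arrays with their replicate number, horizontal lines the mean and the bars beside them ± 1 SD. No mutant value lies within the wild-type range, and mutant heart 4 is the lowest mutant on 6 of the 9 probes.

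All 9 collagen probes past the threshold separated the genotypes without overlap. They were picked by a test on the same values, so this separation is no further support. Of all 18517 probes, picked or not, 5.47% separated with the mutants higher and 1.14% passed the threshold with the mutants higher. Mutant heart 4 was the lowest mutant on 6 of the 9 probes and the highest on 0. Among the wild-type hearts, heart 1 was the highest on 6 and heart 4 the lowest on 5. The 8 genes that rose did so against spreads of different size, and their calls differed in stability over 17 alternative settings. Col3a1, Col5a1 and Col15a1 kept their call in 16 of the 17 and Col1a1 in 15. By contrast Col4a1 kept it in 5, Col16a1 and Col18a1 in 7 and Col4a2 in 8. The sign was positive in all 17 for all 8 genes. Because their groups did not overlap, leaving out 1 array could not change the sign, so this is no further support. The number of collagen genes that rose changed when an array was left out. It fell to 4 in the absence of wild-type heart 1, 3 or 4 or mutant heart 1, to 5 without wild-type heart 2 or mutant heart 2, and to 3 without mutant heart 3. Without mutant heart 4 it was again 8, of which Col6a1 and Col6a2 took the places of Col16a1 and Col18a1. With the replicate number as a block it was 5.

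Changes followed how bright a probe was. Of the 30 genes tested in heart, 10 had a mean log2 value of at least 6, a level chosen after the values were seen. Of these 10 genes 7 rose and 9 had a positive change, Col4a5 being the exception, and their median change was 0.68. Among all 5861 genes at or above that level 2.06% rose and 52.7% had a positive change, with a median of 0.01. Of the 20 dimmer collagen genes only Col3a1 passed. Near background the offset shrinks log2 changes, so the values of the dim genes limit how large a change could be seen. The 7 genes not tested in either tissue were Col5a2, Col6a6, Col9a3, Col10a1, Col13a1, Col19a1 and Col26a1.

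**Figure D2:**
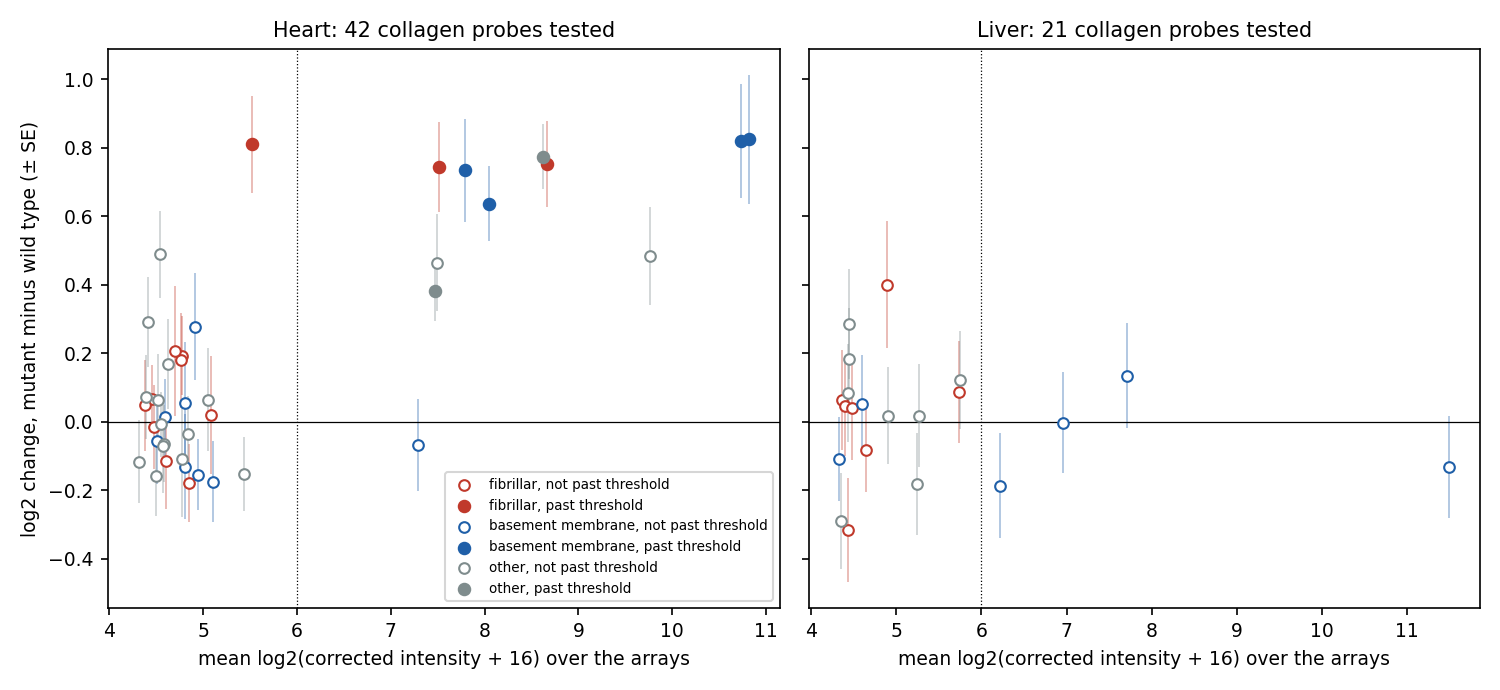
Log2 change (mutant minus wild type, ± SE) against the mean log2(background-corrected intensity + 16) for the collagen probes tested in heart (left, 42 probes) and liver (right, 21 probes); filled points passed the threshold and the dotted line marks a mean of 6. The filled points lie in heart only, all but Col3a1 to the right of the line.

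Markers of other cells were read beside the collagens in heart. Of 10 endothelial markers 9 had positive changes, against 51.8% of all genes, and 0 passed, and their summed background-corrected intensity was 8009 to 8469 in wild-type and 9267 to 10307 in mutant hearts. Endothelial cells make type IV collagen, and Esam, an endothelial adhesion molecule, stood at 0.41 ± 0.10 (adjusted p = 0.0548). Of 4 measured markers of activated fibroblasts, 4 were positive and 0 passed (summed intensity 4465 to 5296 against 5485 to 7038), and Acta2, smooth muscle actin, stood at 0.31 ± 0.11 (adjusted p = 0.179). That sum was mostly Acta2, with a mean log2 of 12.26 in wild-type hearts against 4.62 for Tnc, 4.80 for Fap and 4.27 for Lrrc15. The activated-fibroblast marker Cthrc1 was above background on 0 heart arrays, and Postn on too few to be tested. Of the 8 markers of fibroblasts in general 5 were positive, with a median log2 change of 0.17. They did not separate by their sum (9327 to 10479.5 against 9238 to 10240.3). The brightest of them was Dcn, decorin, at -0.27 ± 0.10 (limma adjusted p = 0.228), while Mfap5, a microfibril protein, rose. The sums of the mural cell markers overlapped too (1794 to 2071 against 1761 to 2002). All 4 measured macrophage markers and all 4 mesothelium markers were positive, 0 passed, and their sums overlapped between the genotypes. The 7 cardiomyocyte markers (90908 to 165956 against 80183 to 98432.5) had 0 calls, with 2 positive and a median log2 change of -0.22. The red-cell markers were lower in mutant hearts (36897 to 73789 against 25544 to 30271.5, 3 of 4 fallen). In tissue RNA a change in the number of cells of a type and a change in RNA per cell cannot be told apart. The part of these markers in the collagen values was not tested.

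Enzymes that finish collagen were read from lists chosen by function. Of all genes tested in heart 1.31% rose, 0.868% fell and 51.8% had a positive change, and in lists of this size a single call says nothing about the list as a whole. Of 12 measured genes for trimming and crosslinking 2 rose and 0 fell, with a median log2 change of 0.30. Both encode lysyl oxidases, Loxl1 (0.92 ± 0.11, limma adjusted p = 0.00137) and Lox (0.85 ± 0.15, adjusted p = 0.0142). Pcolce2, which enhances procollagen trimming, stood at -0.44 ± 0.11 (adjusted p = 0.0667) and the transglutaminase Tgm2 at 0.41 ± 0.11 (adjusted p = 0.0934). Of 19 genes for hydroxylation, folding and export 1 rose and 0 fell, with a median of 0.06. The one was Kdelr3, a receptor that returns chaperones to the endoplasmic reticulum (0.79 ± 0.11, limma adjusted p = 0.00256). P4ha1, a subunit of prolyl hydroxylase, stood at 0.58 ± 0.14 (adjusted p = 0.0532), the collagen chaperone Serpinh1 at 0.84 ± 0.21 (adjusted p = 0.0667) and the isomerase Fkbp14 at 0.38 ± 0.10 (adjusted p = 0.0891).

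Matrix proteins that bind collagen were read in the same way. Of 16 genes of fibril partners 2 rose, Mfap5 (0.87 ± 0.16, limma adjusted p = 0.0180) and Emilin1, a glycoprotein of elastic fibres (0.54 ± 0.12, adjusted p = 0.0421), and the median of the list was -0.02. Biglycan, encoded by Bgn, stood at 0.41 ± 0.10 (adjusted p = 0.0670) and Sparc, a collagen-binding protein, at 0.48 ± 0.13 (adjusted p = 0.0942). Of 14 basement membrane partners (laminins, nidogens, perlecan and others) 0 rose and 1 fell. It was Lamb3, a laminin chain of epithelia, at -0.86 ± 0.16 (limma adjusted p = 0.0168). The perlecan gene Hspg2 stood at 0.21 ± 0.11, Agrn at 0.16 ± 0.09 and Lamb2 at 0.15 ± 0.11, and the median was 0.06. No test compared these partners with Col4a1 and Col4a2.

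Receptors, proteases and inputs were mostly within their spread. Of 8 collagen receptors Itga11, the integrin chain of fibroblasts that binds fibrillar collagen, rose (0.44 ± 0.10, limma adjusted p = 0.0465), while Itgb1 stood at 0.39 ± 0.13 (adjusted p = 0.163) and Itga1, which binds type IV collagen, at 0.20 ± 0.14. Of 17 proteases and inhibitors 1 rose, Timp1, an inhibitor of metalloproteinases (1.55 ± 0.17, limma adjusted p = 0.000897). Mmp14, a membrane-bound collagenase, stood at 0.56 ± 0.21 (adjusted p = 0.217) and Ctsb at 0.29 ± 0.11. Of 22 genes of transforming growth factor beta signalling, an inducer of collagen genes, 0 passed (median -0.03, 10 positive). The members with the smallest p were Ccn2 (0.52 ± 0.14, adjusted p = 0.0840), Tgfbr3 (-0.31 ± 0.09, adjusted p = 0.103), Tgfb3 (0.43 ± 0.14) and Tgfb2 (0.53 ± 0.20).

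**Figure D3:**
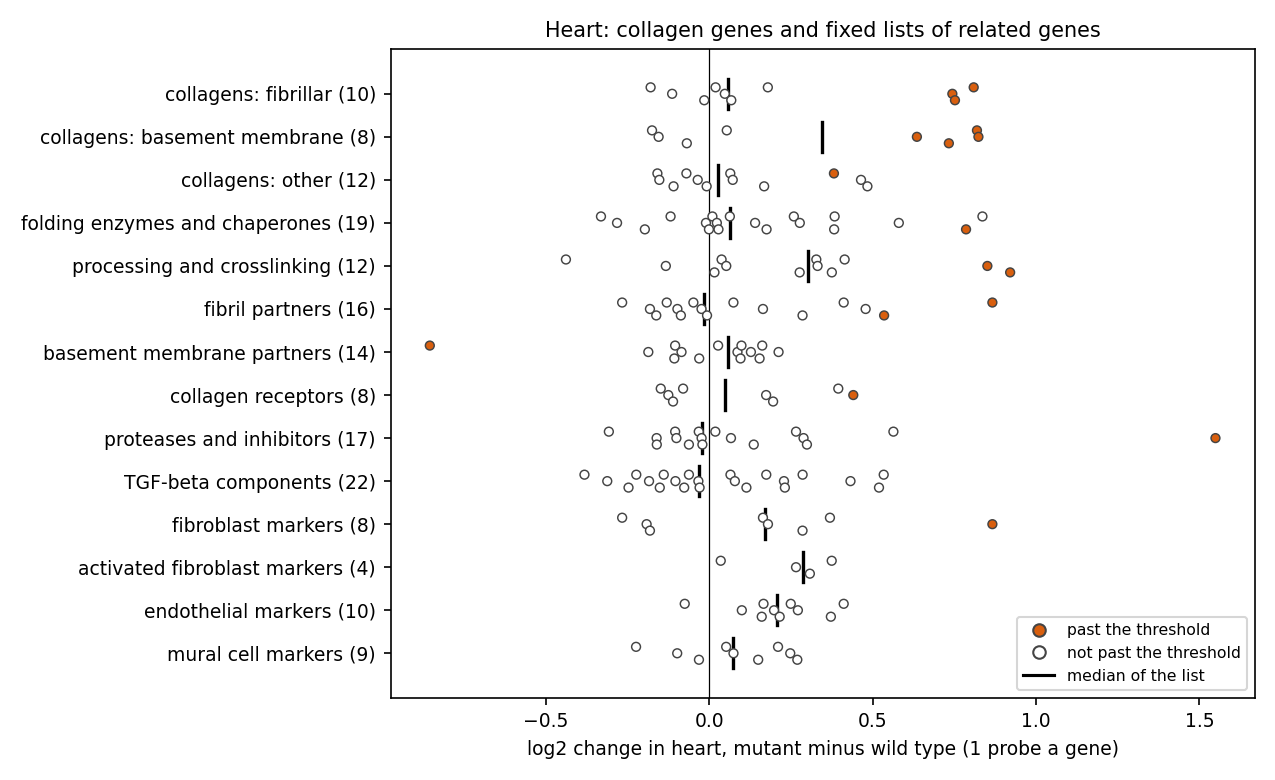
Log2 change in heart (mutant minus wild type) of each tested gene, 1 probe a gene, for the 3 collagen groups, 7 lists of related genes and 4 lists of cell markers; filled points passed the threshold, vertical bars are list medians and numbers in brackets count the genes. The fibrillar and basement membrane groups each divide into genes near 0 and genes between 0.64 and 0.82.

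In liver 0 collagen genes passed in either direction. Of the 37 genes 18 (21 of 59 probes) were tested, and over all 8351 genes tested there 0.0838% rose and 0.0479% fell. Only 3 of the 18 had a mean log2 of at least 6, against 10 of 30 in heart. For the dimmer genes the offset limits how large a change could be seen. At an unadjusted p below 0.05 limma called 0 of the 21 collagen probes, against 11.4% of all 11824 probes. The probe of Col1a1 was not well above background on any liver array. The liver arrays rest on a background near 110, so their intensities cannot be set against those of heart. Of 6 hepatocyte markers 5 were tested in liver, where Apoa1, Ttr, Cps1 and Serpina1a were bright. The probe of Alb was dim (mean log2 of 5.07 in wild-type livers), and Tat was above background on 0 liver arrays. The 7 cardiomyocyte markers were not tested in liver for lack of signal.

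Col18a1, which hepatocytes are known to make, was the brightest collagen probe in liver, at 2870.1, 3191, 3709 and 2739.9 in wild-type and at 2904, 2482 and 3184 in mutant livers. The groups overlapped, with a log2 change of -0.13 and a 95% interval from -0.46 to 0.19. Col4a1 stood at 214, 228, 215 and 215 in wild-type and at 249.9, 207 and 202 in mutant livers. Mutant liver 1 was above and the other two mutants below all wild-type livers, and the change was -0.00 with an interval from -0.32 to 0.32. Col4a2 stood at 182, 174, 174 and 164 against 181, 158 and 154 (change -0.19, interval -0.52 to 0.15). The upper ends of these intervals lie below the changes measured for the same probes in heart. Col4a4 was near background, at 116, 110.2, 115 and 115 against 114, 110.3 and 112.

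The fibrillar and other collagens with the smallest p in liver were dim. Col27a1, a fibrillar collagen of cartilage, stood at 115, 121, 128 and 119 in wild-type and at 121, 130.5 and 136 in mutant livers (log2 change 0.40 ± 0.19, SE, n = 4 and 3 mice, limma adjusted p = 0.450). Col11a1 stood at 117, 119, 123 and 112 against 111, 114 and 109 (-0.32 ± 0.15, limma adjusted p = 0.467), with another probe at 0.06. Col25a1, a transmembrane collagen of neurons, stood at 111, 118, 115 and 121 against 109, 110.4 and 111 (-0.29 ± 0.14, limma adjusted p = 0.467). In each of these the groups overlapped. Col7a1 of anchoring fibrils had 114, 116, 111 and 111 against 123, 111 and 121, and Col17a1 of hemidesmosomes 116, 115, 115 and 108 against 118, 113 and 121. Col1a2, next among the fibrillar genes by p, had 118, 120.0, 123 and 118 against 119, 118 and 118. The medians of the log2 changes were 0.04 over 6 fibrillar, -0.11 over 5 basement membrane and 0.08 over 7 other genes, and 0.01 over all genes tested.

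The related lists held 0 calls in liver as well. Their members with the smallest p were Colgalt1, a collagen glycosyltransferase (-0.57 ± 0.16, limma adjusted p = 0.225), Lamb2 (0.56 ± 0.16, adjusted p = 0.231) and Nid2, which encodes nidogen-2 (-0.54 ± 0.17, adjusted p = 0.261). Loxl1 stood at -0.29 ± 0.15 and Mmp14 at -0.27 ± 0.14, while Lox was above background on 0 liver arrays. Ccn2 stood at 0.62 ± 0.26 (adjusted p = 0.397). Of the stellate cell markers, the collagen-making cells of liver, 4 were tested and 0 passed (summed intensity 490.1 to 703 in wild-type and 660.4 to 769.6 in mutant livers). That sum was mostly Reln, with a mean log2 of 9.15 in wild-type livers against 5.25 for Des, 5.19 for Ngfr and 4.51 for Lrat.

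The difference between the tissues was tested by taking the heart change from the liver change, in 1 fit of all 15 arrays with the mouse as a random block. Of 19 collagen probes tested in both tissues 3 passed, all more positive in heart, while 1.07% of all 11308 probes passed in that direction. They were the Col6a1 probe that rose in heart (-0.96 ± 0.17, limma adjusted p = 0.00833), Col4a2 (-1.01 ± 0.24, adjusted p = 0.0368) and Col18a1 (-0.87 ± 0.22, adjusted p = 0.0461). The difference for that Col6a1 probe passed in all 21 alternatives, whereas Col4a2 lost its call in 13 and Col18a1 in 14 of them. In liver the Col6a1 probe was dim, at 127 to 141 on a background near 110 (mean log2 of 5.25). There the offset shrinks a change more than in heart. Col3a1 (-0.76 ± 0.21, adjusted p = 0.0619), Col5a1 (-0.67 ± 0.20, adjusted p = 0.0898), Col15a1 (-0.58 ± 0.17, adjusted p = 0.0911) and Col4a1 (-0.83 ± 0.26, adjusted p = 0.110) did not pass. The other 12 probes did not pass either. Among them were the brightest probe of Col6a1 (-0.36 ± 0.21, limma adjusted p = 0.404) and a second probe of Col18a1 (-0.14 ± 0.23, adjusted p = 0.537). The count of 3 fell to 1 without wild-type liver 1, 2 or 3, without mutant liver 2 or 3, and without wild-type heart 2, 3 or 4 or mutant heart 1 or 3. The tissues were scaled separately, and the same offset was added in both.

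**Figure D4:**
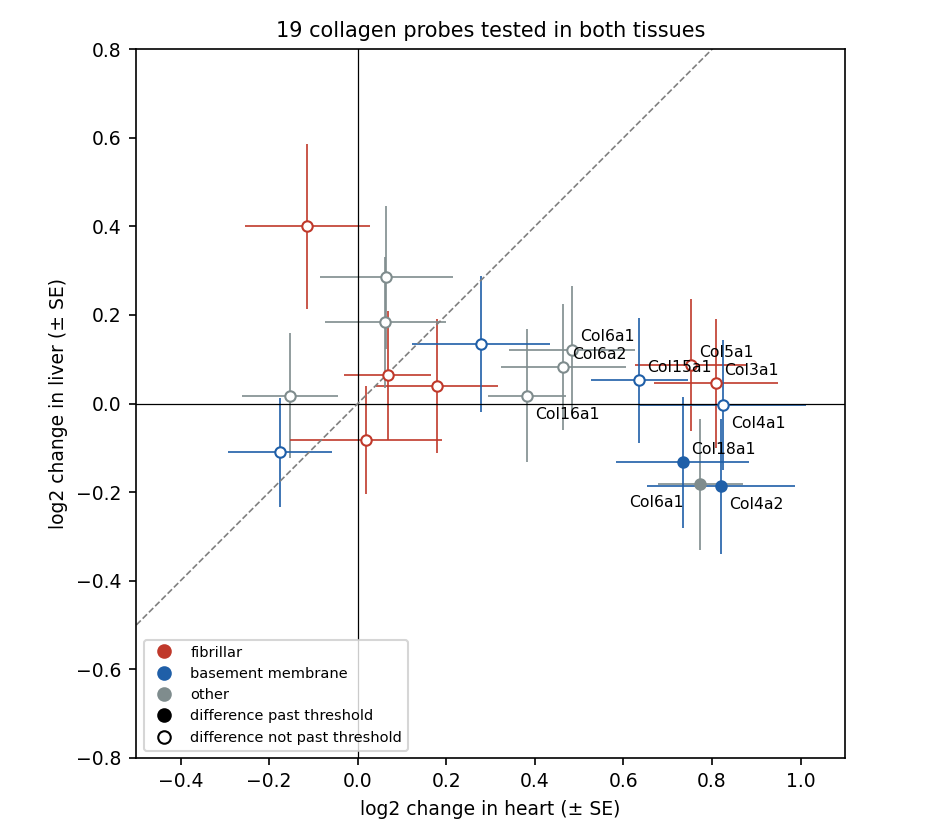
Log2 change in liver against log2 change in heart (mutant minus wild type, ± SE in each tissue) for the 19 collagen probes tested in both; filled points have a tissue difference past the threshold and the dashed line marks equal change. The probes with changes above 0.6 in heart lie between -0.19 and 0.09 in liver. Among them Col3a1, Col5a1, Col15a1 and Col6a1 had a mean log2 below 6 in liver, where the offset shrinks changes.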

How the data were processed

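Each of 15 Illumina arrays measured 1 tissue of 1 mouse, and the authors deposited a normalized linear intensity for every probe. The submitters' processing notes name GenomeStudio 2011.1, and the normalization is not given in the sources used here. Array medians agree within a tissue and differ between tissues, so levels were compared within a tissue only. A second table has 15 columns whose names match no sample and was not used. Probes were named from the platform annotation, where 0 probes carry the name Abcb5, so the genotype labels were not checked by that gene.

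For each array the background was the mode of its low values (110.0 on liver arrays, -2.41 to -2.39 on heart arrays) with the SD below it. The normexp model with these parameters was applied, 16 was added and log2 taken, keeping the authors' scaling. A probe was tested when above background (normal p below 0.05) on at least 3 arrays of the tissue. Genotypes were compared with limma 3.58.1 in R 4.3.3, and the tissue difference with statmod 1.5.0 (correlation within a mouse 0.0123). The limma fit within each tissue was tested on simulated log2 values. The background correction, the filter and the fit of the tissue difference were not part of that test. The number of arrays limits the precision. The labels give no pairing of mice of the 2 genotypes by replicate number.

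All collagen probes are accounted for. Values on every array are given for genes past the threshold and for the 3 with the smallest p of each group and tissue. Lists name members that passed and those with the smallest p. Members, lists and tests were chosen with earlier results of these data known. Alternatives were the offset, floor, filter, quantile normalization, variance model, a joint fit, the replicate block, averaged probes and each array left out.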

Additional observations from a re-analysis of the deposited data

Results flagged for a closer look

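Single arrays stood apart from the other 3 of their group on 5 of 105 group and probe combinations of the collagens (Dixon's test), where chance flags about 5%. Col5a1 in mutant heart 4 had a log2 value of 8.79 against 9.11 to 9.15 in the other mutant hearts. Col17a1 in wild-type heart 3 stood at 4.75 against 4.37 to 4.43, and Col23a1 in wild-type heart 4 at 4.68 against 4.90 to 4.94, both near background. In wild-type liver 2, Col6a1 was low on its brightest heart probe (5.44 against 5.75 to 5.80) and Col4a1 high (7.07 against 6.91 to 6.92).

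The genotype effect differed between the tissues for a probe of Col6a1 (liver minus heart -0.96), of Col4a2 (-1.01) and of Col18a1 (-0.87). This was tested with limma in a single fit of all arrays. Another probe of Col6a1 and another of Col18a1 did not pass, and the Col6a1 probe that passed was dim in liver.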

How the results depend on the processing

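The count of probes past the threshold in heart (367) was 577 with an offset of 50, 130 when uncorrected values were floored at 16, 604 with trend and robust settings, 578 in one fit of all arrays and 240 with the replicate block, and 198 to 294 with 1 array left out. The 8 collagen genes in heart became 1 with the floor (Col16a1), 5 without a filter on dim probes, 5 with the replicate block and 3 to 8 with 1 array left out. With the floor the genes that lost their call had log2 changes from 0.68 (Col15a1) to 1.21 (Col3a1). All heart values below 16 became equal in that setting, and the effect of this on the variance estimates was not tested. The median change of the collagen genes in heart was 0.03 to 0.10 with 1 array left out. In liver the 12 probes became 5 with the floor, 0 without the filter (limma, with 2053 at an unadjusted p below 0.05), 36 with trend and robust, 156 in one fit, 31 with the replicate block (where wild-type liver 4 has no partner) and 2 to 49 with 1 array left out. The collagen count there was 0 in every alternative run, and the median change ran from -0.0508 (without mutant liver 3) to 0.0922 (without mutant liver 1). The tissue difference gave 248 probes, 381 with the floor and 136 to 291 with 1 array left out. Its 3 collagen probes became 6 with an offset of 50, 7 with the floor, 1 without the filter and 1 to 3 with 1 array left out. With the floor the liver values kept their background near 110, which makes liver log2 changes smaller. An offset of 50 likewise shrinks the changes of dim probes. The counts of 6 and 7 cannot be told apart from this shrinkage. The causes of the shifts were not tested. No collagen gene that rose changed sign, which the lack of overlap fixed in advance for each array left out. Deviations of same-numbered wild-type and mutant arrays correlated at -0.11 to -0.05 in heart and -0.04 to 0.01 in liver. Different-numbered heart arrays correlated at -0.15 to 0.23. With so few arrays these values cannot show whether same-numbered arrays shared a batch, and the labels give no pairing of the mice.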

Other observations

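After subtraction of each genotype's mean over the 8 hearts, the 5 genes whose log2 values correlated most with Col1a1 were Lpcat4, Acadvl, Rrad, Ppp1r8 and Parp9 (Pearson 0.96 to 0.98). For Col3a1 they were Faim, Zscan21, Ppp1r9a, 4930486L24Rik and Srebf1 (0.94 to 0.97), and for Col4a1 Ankrd23, Wipi1, Lrrc20, Prmt1 and Cic (0.98 to 0.99). None of the 15 is a collagen gene or passed the threshold in heart. Over 8 arrays such values are given as a description.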
